A study of Mus musculus with 3 samples.

Results

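The 10 genes described here mark B cells of the germinal centre, or serve in human assays to recognise diffuse large B cell lymphomas of germinal centre type (GCB). They were chosen by symbol, as Mybl1, Gcsam, Rgs13, Mef2b, Neil1, Efnb1, Mme, Serpina9, Itpkb and S1pr2, and all 10 were among the 37646 genes listed in the deposited count tables. Messenger RNA was counted in sorted B220+GFP+ cells from the spleens of C57BL/6 mice of the pBIC lymphoma model, in 3 libraries called tumours 1, 2 and 3. Every library carries the same genotype, with homozygous floxed alleles of p53 and of Blimp1, a homozygous castop allele of IKK2 (a constitutively active kinase behind a floxed stop) and 1 copy of Cg1Cre, which expresses Cre recombinase from the Ighg1 locus. The labels call the model an ABC-DLBCL lymphoma, after the activated B cell (ABC) subtype. They give no ages. Sorted normal germinal centre B cells, which the design names as controls, were not analysed here, so each value is a level inside lymphoma cells and no gene is compared with its normal level.

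A germinal centre is the structure in a lymphoid follicle where B cells answering an antigen divide, mutate their antibody genes and are selected. Its B cells switch on transcription factors that hold them in this state, adaptors and receptors that confine them to the follicle, and enzymes that repair or tolerate DNA lesions. In human lymphoma, high levels of several of these genes define the GCB subtype, and the ABC subtype resembles cells leaving the germinal centre toward plasma cells.

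The libraries held 15022902 to 15141009 counts, and 3 counts, taken as the floor for a gene not detected, correspond to 0.194 to 0.209 CPM (counts scaled to a common library size with TMM factors). Of 6 B cell genes, 6 were at 1 CPM or more in every tumour, and 6 of 6 were highest in tumour 1. Of 7 T cell genes, 6 also reached 1 CPM in every tumour, so this count does not tell the 2 cell types apart. The labelled cell type stood out by level, with the B cell genes at 3462, 1970 and 1623 CPM in sum in tumours 1, 2 and 3. Summed over their marker lists, T cell genes had 19.8, 24.1 and 38.6 CPM, macrophage genes 8.36, 26.0 and 5.88 CPM and neutrophil genes 54.1, 19.6 and 2.81 CPM. Stromal and follicular dendritic cell genes stayed at or below 1.17 CPM in sum, with Col3a1 and Pdpn at 0. Endothelial genes had 3.89, 3.62 and 10.1 CPM, mostly from Egfl7, with Tie1 and Emcn at 0. The part of these other cells in the values below was not tested. In bulk RNA, fewer cells that express a gene and less RNA per cell cannot be told apart.

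The members fell into detected and undetected genes. Mef2b, Itpkb, S1pr2, Mybl1 and Neil1 reached 1 CPM in all 3 tumours, Efnb1 did so in tumour 1 alone, and Rgs13, Serpina9, Gcsam and Mme stayed at or under 3 counts in every library. The 5 of 10 genes at 1 CPM or more compare with 28.7% of all listed genes and 53.8% of the 18730 protein-coding ones, so for protein-coding genes the share is near the background. The same 53.8% stands beside the counts of the gene families below. The median of the 10 members was 3.04 CPM, against 33.5 CPM over the 11478 genes tested for variability and 0.0882 CPM over all listed genes. The same medians per length were 1.55 TPM (counts divided by the joined length of annotated exons, then scaled to a common total), 22.4 TPM and 0.238 TPM. The tested genes had passed a filter on low counts. Over the 5 members that passed it too, the medians were 6.40 CPM and 6.53 TPM.

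Stretches upstream of the start are shown for 2 undetected members, Rgs13 and Gcsam, and for 2 detected members, Mef2b and S1pr2, to show how their CpG content differed. RefSeq (GRCm38.p6, the assembly of mm10) gave promoters for 8 of the 10 members, all but Mybl1 and Serpina9. Each stretch reads 5′ to 3′ on the strand of its gene and ends at the RefSeq start, or, for Gcsam, before its first annotated exon. Capitals mark CpG dinucleotides. They lie at chr1:144177373-144177622 (Rgs13, reverse strand), chr16:45610190-45610379 (Gcsam, forward), chr8:70152511-70152760 (Mef2b, forward) and chr9:20976794-20977043 (S1pr2, reverse).
Rgs13: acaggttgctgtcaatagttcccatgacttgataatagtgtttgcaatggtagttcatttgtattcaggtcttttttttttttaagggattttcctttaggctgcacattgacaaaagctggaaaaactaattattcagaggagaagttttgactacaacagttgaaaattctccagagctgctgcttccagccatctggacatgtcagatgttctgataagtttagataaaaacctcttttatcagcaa
Gcsam: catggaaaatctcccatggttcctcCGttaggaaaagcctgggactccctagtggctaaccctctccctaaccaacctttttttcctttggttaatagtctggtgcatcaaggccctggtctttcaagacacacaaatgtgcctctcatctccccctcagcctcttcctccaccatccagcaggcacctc
Mef2b: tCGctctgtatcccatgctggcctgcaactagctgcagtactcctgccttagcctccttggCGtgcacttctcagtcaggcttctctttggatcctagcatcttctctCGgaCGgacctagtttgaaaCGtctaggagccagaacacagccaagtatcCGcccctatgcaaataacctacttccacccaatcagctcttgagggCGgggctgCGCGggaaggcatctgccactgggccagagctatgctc
S1pr2: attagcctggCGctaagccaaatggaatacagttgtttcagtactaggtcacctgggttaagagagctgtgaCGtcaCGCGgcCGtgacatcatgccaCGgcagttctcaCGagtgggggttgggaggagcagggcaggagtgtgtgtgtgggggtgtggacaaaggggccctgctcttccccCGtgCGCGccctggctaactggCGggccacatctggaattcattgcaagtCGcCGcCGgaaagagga

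The 250 bases before the start of Rgs13 held 0 CpG and those of Gcsam 3, of which 1 is in the stretch printed. S1pr2 had 14, Efnb1 13, Neil1 12, Mef2b 9 and Itpkb 4 in the same window. Mme has 3 RefSeq starts, with 2 CpG before the first and 27 before each of the others, so no single count describes it. Detected Itpkb thus lay close to undetected Gcsam, and the 2 later starts of undetected Mme lay above every detected member. The stretches shown therefore do not stand for all detected or undetected members. The median was 17 CpG over 8190 protein-coding genes at 1 CPM or more in every tumour and 5 over 6407 below it, and 2.33% and 19.5% of these had 0 or 1 CpG. Both strands were also searched for 3 motifs. The octamer ATTTGCAT, bound by POU factors, occurred in 1.51% of all 17439 promoters of listed genes. Among the members it was present only before Mef2b, on the opposite strand and 77 bases ahead of the start. The E-box CAGGTG, read by E2A proteins, was present before Neil1 and S1pr2 (16.8% of all promoters). The CCAAT box was present before Mef2b, Efnb1 and the 2 later starts of Mme (35.4% of all promoters). These are matches of letters and show no binding.

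Among the transcription factors, Mef2b was the most abundant member per length. It encodes a MADS-box factor that activates Bcl6 (ENSMUSG00000079033.10, chromosome 8, 70139711 to 70167488, forward strand). Tumours 1, 2 and 3 had 263, 423 and 311 counts, which is 38.7, 59.7 and 42.9 TPM. The level was highest in tumour 2 and the others were close together. The mean was 47.1 ± 11.1 TPM (SD, n = 3), above 70.3% of the tested genes, and Mef2b was the only member above their median. All 3 of its values lay above every value of every other member. In CPM, which ignores length, Mef2b (22.3 ± 6.42) and Itpkb (22.4 ± 9.99) did not differ beyond their spread, since the joined exons of Mef2b span 1404 nt and those of Itpkb 10463 nt.

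Of 5 annotated Mef2b transcripts, 1 begins in the first exon of the upstream gene Borcs8, and 62 nt (4.42%) of the Mef2b exons are shared with it. Borcs8 had 491, 487 and 307 counts in tumours 1, 2 and 3, and the part of shared reads in the Mef2b counts was not tested. How reads over the shared bases were assigned is not given in the sources used here.

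The other MEF2 genes were also present, and with Mef2b 4 of 4 were at 1 CPM or more in every tumour (53.8% of protein-coding genes). Mef2d had 102 ± 36.0 TPM, Mef2c, which acts downstream of the B cell receptor, 68.4 ± 17.1 TPM, and Mef2a 27.1 ± 7.04 TPM (SD, n = 3). Mef2c exceeded Mef2b by 0.73 and 1.0 in log2(TPM + 1) in tumours 1 and 3 and lay below it, by -0.16, in tumour 2. The mean difference was 0.53 ± 0.61, higher in 2 of 3 tumours, and the exact sign-flip test (two-sided) gave p = 0.5. It depended on length, at 1.77 with the longest annotated transcript and 3.96 with no division by length.

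Mybl1 encodes A-MYB, a factor of dividing germinal centre B cells (ENSMUSG00000025912.16, chromosome 1, 9667415 to 9700209, reverse strand). It had 176, 50 and 55 counts, or 11.4, 3.48 and 3.60 CPM, in tumours 1, 2 and 3. Tumour 1 stood above the others, whose values were nearly equal, and its 95% exact Poisson interval of 9.78 to 13.2 CPM did not meet that of tumour 2, 2.58 to 4.59 CPM, or of tumour 3, 2.71 to 4.68 CPM. Such intervals cover counting error only. The 3.28-fold range was not past the threshold of the edgeR variability test (adjusted p = 0.981). This test sets the spread of a gene between tumours against the spread of equally abundant genes. Tumour 1 also had the highest summed levels of the 6 B cell markers and of the 7 neutrophil markers. The part of either in this difference was not tested.

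Mybl1 was the lowest of the MYB genes in every tumour. Mybl2, the B-MYB factor of cycling cells in many tissues, had 42.3, 44.2 and 55.3 TPM, and Myb had 17.9, 11.8 and 17.6 TPM, against 6.73, 1.83 and 1.97 TPM for Mybl1. Mybl2 exceeded Mybl1 by 3.57 ± 0.95 in log2(TPM + 1) (SD, n = 3), in 3 of 3 tumours. The two-sided exact sign-flip p was 0.25, the smallest that 3 tumours allow, and 0.278 after Benjamini-Hochberg adjustment over the 10 pairs compared. No pair in this design can pass 0.05.

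Among genes that confine and steer B cells, S1pr2 was detected and Rgs13 and Gcsam were not. S1pr2 encodes a sphingosine-1-phosphate receptor that signals through G alpha 13 to keep B cells near the follicle centre (ENSMUSG00000043895.6, chromosome 9, 20962361 to 20976781, reverse strand). It had 67, 52 and 172 counts, or 4.34, 3.62 and 11.2 CPM, in tumours 1, 2 and 3. Tumour 3 was the high one, with a counting interval of 9.63 to 13.1 CPM, and the others overlapped, at 3.36 to 5.51 and 2.70 to 4.74 CPM. The edgeR adjusted p for variability was 0.997. The summed level of T cell markers was also highest in tumour 3. The 5 follicular helper T cell markers summed to 14.2, 23.0 and 7.58 CPM, of which Pdcd1 had 10.4, 21.7 and 6.08 CPM. Of these 5 genes, 2 were highest in tumour 3, Cd40lg with 1, 0 and 2 counts and Sh2d1a with 5, 5 and 7. Counts this low do not support an order between tumours. The part of T cells in S1pr2 was not tested.

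Among receptors of the same ligand with other roles, S1pr1 and S1pr4 lay above S1pr2 in every tumour. S1pr1, which draws lymphocytes out of follicles and tissues and which germinal centre B cells normally lose, had 56.1, 13.9 and 86.0 TPM in tumours 1, 2 and 3. S1pr4 had 27.7, 27.5 and 23.8 TPM, nearly level across tumours. S1pr2 had 1.74, 1.29 and 4.18 TPM. Per tumour, S1pr1 exceeded S1pr2 by 3.72 ± 0.89 and S1pr4 exceeded it by 3.09 ± 0.73 in log2(TPM + 1) (SD, n = 3), both in 3 of 3 tumours with an exact sign-flip p of 0.25. S1pr3 ran in another order, at 19.1, 4.39 and 0.608 TPM, below S1pr2 in tumour 3 (edgeR adjusted p for variability 0.0787). S1pr5 had 1 count in all.

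Genes that act downstream of S1pr2 were all present, with 6 of 6 at 1 CPM or more in every tumour (53.8% of protein-coding genes). Past the edgeR variability test were 0 of 6, where 0.139% of all tested genes passed. At an unadjusted p under 0.05 there were 0, where 6.27% of all tested genes were. For 6 genes, 0 is near both shares. Gna13, which encodes G alpha 13, had 84.8 ± 13 TPM, and Arhgef1, the RhoA activator it engages, had 128 ± 25.5 TPM (SD, n = 3). Gna13 exceeded S1pr2 by 4.74 ± 0.41 in log2(TPM + 1) and was higher in all 3 tumours (exact sign-flip p = 0.25). Rhoa had 73.8 ± 6.93 TPM, with Gna12 at 32.0 ± 11.7 TPM.

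Rgs13 encodes a small GTPase-activating protein that damps chemokine receptor signals (ENSMUSG00000051079.8, chromosome 1, 144138654 to 144177372, reverse strand). It had 3, 2 and 1 counts in tumours 1, 2 and 3, all at or under the floor, and the highest upper limit of its counting interval was 0.568 CPM. Of the 10 small RGS genes of the list, 3 were at 1 CPM or more in every tumour. Rgs2 led at 21.0, 1.97 and 22.2 TPM, followed by Rgs1, a regulator of the same receptors in B cells, at 5.86, 1.71 and 13.03 TPM, and both were lowest in tumour 2. Neither passed the edgeR variability test (adjusted p = 0.161 for Rgs2 and 0.397 for Rgs1). Rgs5 and Rgs21 had no count.

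Gcsam encodes HGAL, an adaptor that restrains motility and takes part in B cell receptor signalling (ENSMUSG00000022659.13, chromosome 16, 45610380 to 45622867, forward strand). It had 0, 1 and 0 counts. At this depth the 95% Poisson limits allow up to 0.239, 0.388 and 0.241 CPM in tumours 1, 2 and 3, so a level below these was not detectable.

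Efnb1 encodes ephrin-B1, a surface ligand of EphB receptors found on germinal centre B cells (ENSMUSG00000031217.8, chromosome X, 99136130 to 99148991, forward strand). It had 22, 10 and 4 counts, or 1.43, 0.696 and 0.262 CPM. The gene thus lay above the floor in each tumour but reached 1 CPM only in tumour 1. It failed the filter on low counts and was not tested in the main fit. Kept in by a looser filter (mean count 10 or more), its edgeR adjusted p was 0.997. Among the 9 ephrin-B and Eph genes of the list, Ephb4 had 9.58 ± 3.75 TPM and Efnb3 2.73 ± 1.01 TPM, and these were the 2 that reached 1 CPM in every tumour. Ephb1, Ephb3, Ephb6 and Epha4 had no count. Efnb2 had 14, 3 and 6 counts in tumours 1, 2 and 3, at the floor in tumour 2 and with more counts than Efnb1 in tumour 3. Per length its difference from Efnb1 was -0.43 ± 0.33 in log2(TPM + 1) (SD, n = 3), negative in each tumour (exact sign-flip p = 0.25). This too depended on length, at -0.31 with the longest transcript and -0.23 with no division by length (exact sign-flip p = 0.5 for both), so the order of these 2 low genes was not settled.

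Enzymes made up the rest of the detected members. Itpkb encodes a kinase that turns inositol trisphosphate into tetrakisphosphate and so tempers calcium and AKT signals (ENSMUSG00000038855.10, chromosome 1, 180330485 to 180424802, forward strand). Tumours 1, 2 and 3 had 511, 192 and 316 counts, or 33.1, 13.4 and 20.7 CPM. The counting intervals, 30.3 to 36.1, 11.5 to 15.4 and 18.4 to 23.1 CPM, did not overlap. The 2.48-fold range compares with a median of 1.66-fold over 888 tested genes within 1.2-fold of the mean CPM of Itpkb, and the edgeR adjusted p was 0.986.

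Per length Itpkb had 6.53 ± 3.28 TPM (SD, n = 3). Itpka, at 2.84, 4.47 and 9.27 TPM, overlapped it and was lowest in tumour 1, where Itpkb was highest. Itpkc lay below Itpkb in each tumour, by -1.03 ± 0.48 in log2(TPM + 1) (SD, n = 3, exact sign-flip p = 0.25). Ipmk, an inositol multikinase, had 24.0 ± 4.21 TPM. All 4 of these kinase genes reached 1 CPM in every tumour (53.8% of protein-coding genes).

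Neil1 encodes a DNA glycosylase that removes oxidised bases (ENSMUSG00000032298.13, chromosome 9, 57142800 to 57148305, reverse strand). It had 64, 63 and 112 counts, or 4.15, 4.38 and 7.32 CPM. Tumours 1 and 2 were nearly equal and tumour 3 was higher, with a 1.77-fold range, where the median for 510 tested genes of like mean CPM was 2.21-fold (edgeR adjusted p = 0.997). At 8.45 ± 2.74 TPM (SD, n = 3) it lay in the middle of the DNA glycosylases. Of these, 10 of 11 reached 1 CPM in every tumour (53.8% of protein-coding genes). Ung, which removes uracil from DNA, had 25.8 ± 5.93 TPM and exceeded Neil1 by 1.51 ± 0.35 in log2(TPM + 1) and was higher in all 3 tumours (exact sign-flip p = 0.25). Ogg1 had 23.5 ± 4.52 TPM, Mutyh 16.8 ± 3.37 TPM and Mbd4 11.7 ± 5.72 TPM. Neil2 was the one gene of this list that missed 1 CPM in some tumour, at 2.66, 0.626 and 0.458 CPM in tumours 1, 2 and 3.

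Mme encodes CD10, a cell surface metallopeptidase used to mark human GCB lymphoma (ENSMUSG00000027820.12, chromosome 3, 63241537 to 63386030, forward strand). It had 0, 0 and 1 counts in tumours 1, 2 and 3 over joined exons of 11542 nt. Of its family, Ece1, the endothelin-converting enzyme gene, had 84.0, 43.9 and 70.1 TPM and was the only 1 of 7 at 1 CPM or more in every tumour. Ece2 had 3 counts in all, Mmel1 2 and Ecel1 0.

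Serpina9 encodes centerin, a germinal centre serpin that inhibits serine proteases (ENSMUSG00000058260.2, chromosome 12, 103994743 to 104013755, reverse strand). It had 1, 0 and 2 counts. In its clade of 19 listed serpins, 13 had no count, and Serpina3g and Serpina3f alone reached 1 CPM in every tumour. Serpina3g had 289, 321 and 144 TPM, and Serpina3f had 298, 340 and 67.8 TPM (edgeR adjusted p for variability 0.166). The Serpina3 genes are close copies of each other, so how counts fell among them is uncertain.

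**Figure D1:**
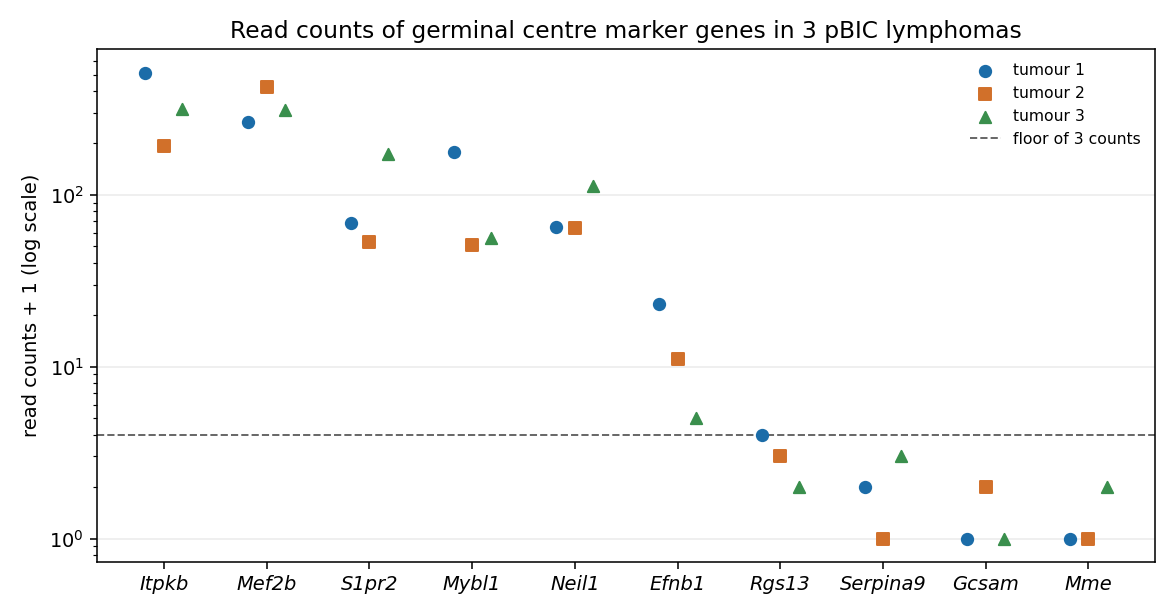
Read counts plus 1 (log scale) of the 10 members in tumours 1 to 3, ordered by mean CPM, with the floor of 3 counts dashed. Itpkb, Mef2b, S1pr2, Mybl1 and Neil1 have 50 or more counts in every tumour, Efnb1 has 22, 10 and 4, and the other 4 genes do not exceed 3.

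Ordered by mean TPM, the members ran Mef2b, Neil1, Itpkb, Mybl1, S1pr2, Efnb1, Rgs13, Serpina9, Gcsam, Mme. The step from Mef2b to Neil1 (47.1 to 8.45 TPM) and that from Rgs13 to Serpina9 (6 and 3 counts in all) were the 2 between neighbours whose values did not overlap, and the latter lies at the floor. The neighbours from Neil1 to Efnb1 overlapped. Read within each tumour, Itpkb lay above Mybl1 and S1pr2 above Efnb1 in 3 of 3 tumours. Neil1 lay above Itpkb and Mybl1 above S1pr2 in 2 of 3. With the longest annotated transcript as the length, Itpkb (8.60 TPM) came before Neil1 (7.33 TPM), and no other neighbours changed places.

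**Figure D2:**
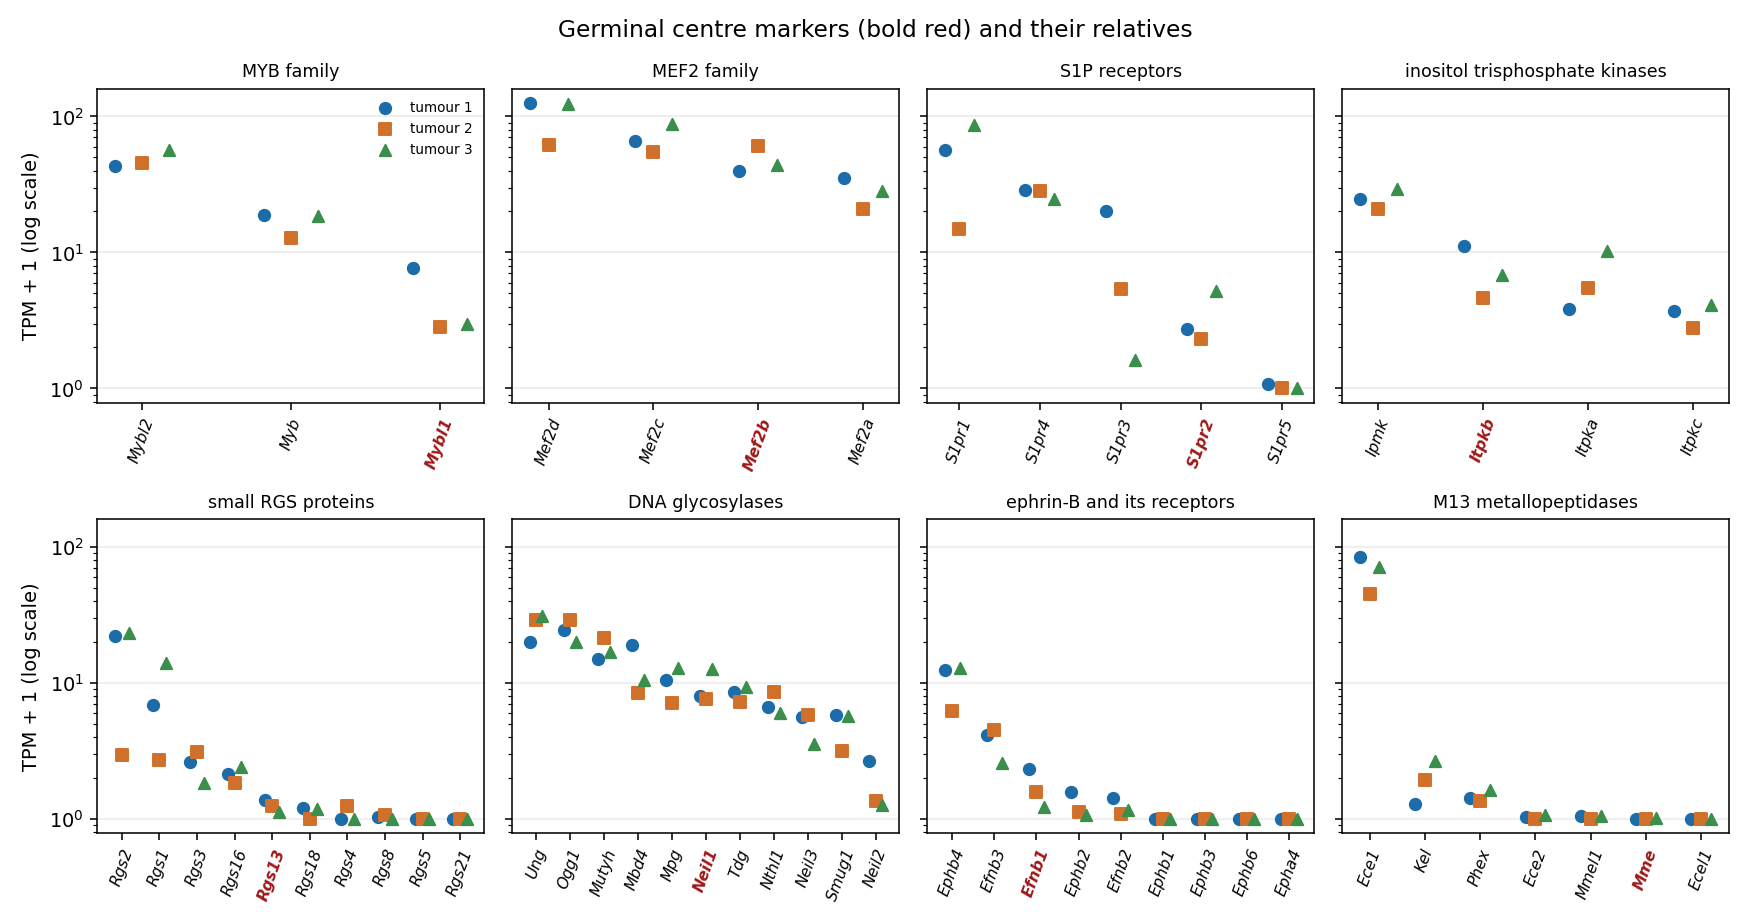
TPM plus 1 (log scale) in each tumour for 8 families that hold a member, genes ordered by mean TPM, members in bold red. No member leads its family by mean TPM. Mybl1, S1pr2, Rgs13, Efnb1 and Mme lie well below the leading relative, and Mef2b, Neil1 and Itpkb lie closer to theirs.

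No member passed the edgeR variability test. Of 11478 tested genes 16 (0.139%) had an adjusted p under 0.05, and of the 5 tested members 0 did, with 0 at an unadjusted p under 0.05 (lowest 0.127, Mybl1). Their highest-to-lowest range had a median of 2.48-fold, against 1.64-fold over all tested genes. Genes of low count spread more. Within 1.2-fold of the mean CPM of each member, the median range was 2.13-fold for Mybl1 (own range 3.28-fold), 2.12-fold for S1pr2 (3.11-fold), 1.66-fold for Itpkb (2.48-fold), 1.66-fold for Mef2b (1.73-fold) and 2.21-fold for Neil1 (1.77-fold). Neil1 ranged less than genes of like mean CPM and the other 4 ranged more. The members were not highest in 1 tumour alone. Itpkb, Mybl1 and Efnb1 were highest in tumour 1, Mef2b in tumour 2, and S1pr2 and Neil1 in tumour 3.

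**Figure D3:**
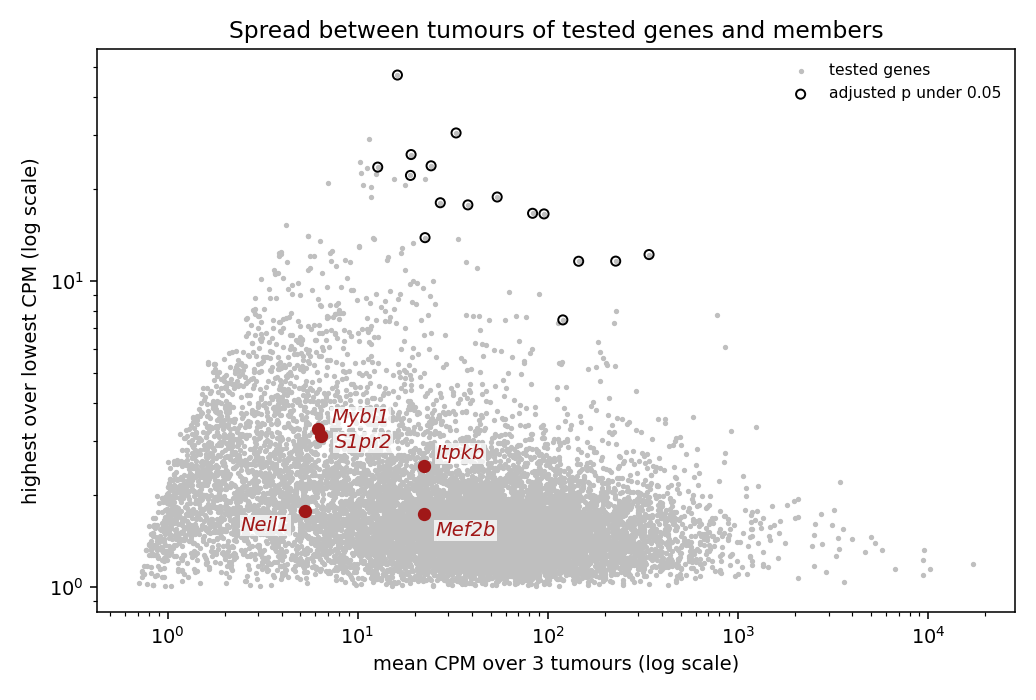
Highest over lowest CPM of 3 tumours against mean CPM (both log scales) for 11478 tested genes in grey, with the 16 genes of adjusted p under 0.05 circled and the 5 tested members in red. The members lie inside the grey cloud, at ranges from 1.73-fold (Mef2b) to 3.28-fold (Mybl1).

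Other genes of the germinal centre programme were read from lists of their own, beside the 53.8% of protein-coding genes at 1 CPM or more in every tumour. Of 12 transcription factors that act in germinal centre B cells, all 12 reached 1 CPM in every tumour (list median 85.4 TPM). The list was chosen with earlier results of these data known, so this share is a description only. Pou2af1, the octamer coactivator gene, led at 464 ± 47.9 TPM, followed by Spib at 422 ± 162 TPM, Irf8 at 358 ± 148 TPM and the E2A gene Tcf3 at 259 ± 56.0 TPM (SD, n = 3). Bcl6, the repressor that defines the germinal centre state and a target of Mef2b, was among the lowest at 5.55, 2.37 and 2.11 TPM in tumours 1, 2 and 3. Like Mybl1 it was highest in tumour 1 with the others close together (edgeR adjusted p = 0.997). Ebf1 and Bach2 of the same list were low as well, at 2.22 and 4.13 TPM on average.

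Of 11 other germinal centre markers 8 reached 1 CPM in every tumour (list median 12.96 TPM), a list too short to set apart from that background. Cxcr4, the receptor that leads B cells to the dark zone, had 183, 67.6 and 194 TPM. Cxcr5, the receptor for the follicle, had 162, 70.8 and 16.6 TPM, a spread whose edgeR adjusted p of 0.0536 did not pass the threshold. Fas had 66.4 ± 15.5 TPM. Klhl6, which encodes a ubiquitin ligase adaptor, had 30.2, 14.1 and 24.6 TPM and was lowest in tumour 2. Sugct, Nuggc and Maml3 stayed near the floor, with 10, 5 and 8 counts in all.

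Genes that B cells normally lose on entry to the germinal centre reached 1 CPM in every tumour for 5 of 8, a share near the background (list median 39.1 TPM). Klf2 led this list at 382, 160 and 598 TPM in tumours 1, 2 and 3. Ccr7 had 155 ± 18.4 TPM and Cd38 114 ± 45.9 TPM (SD, n = 3). Genes of the ABC assay reached 1 CPM in every tumour for 7 of 8 (list median 86.4 TPM). Tnfrsf13b, which encodes the TACI receptor, led at 264 ± 59.3 TPM, followed by Irf4, a factor of plasma cell differentiation, at 119 ± 59.4 TPM, Ccdc50 at 114 ± 60.7 TPM and Limd1 at 96.0 ± 15.2 TPM (SD, n = 3). These medians stand beside 1.55 TPM for the 10 members. The 5 tested members had a median of 6.53 TPM and all tested genes 22.4 TPM, and no test between lists was made. Of 5 plasma cell markers 3 reached 1 CPM in every tumour. The gene of the antibody joining chain, Jchain, had 45.1, 468.5 and 274.5 TPM, lowest in tumour 1, and was the 1 listed gene past the edgeR variability test (adjusted p = 0.0363). Its call was lost with the library total alone (edgeR adjusted p = 0.0964), with a mean count of at least 10 (0.139), without tumour 1 (0.976) and without tumour 2 (0.257). In the transcription factor, marker, loss and ABC lists 0 of 12, 8, 6 and 7 tested genes passed the edgeR variability test, where 0.139% of all tested genes did. At an unadjusted p under 0.05 there were 3, 3, 2 and 1, where 6.27% of all tested genes were.

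**Figure D4:**
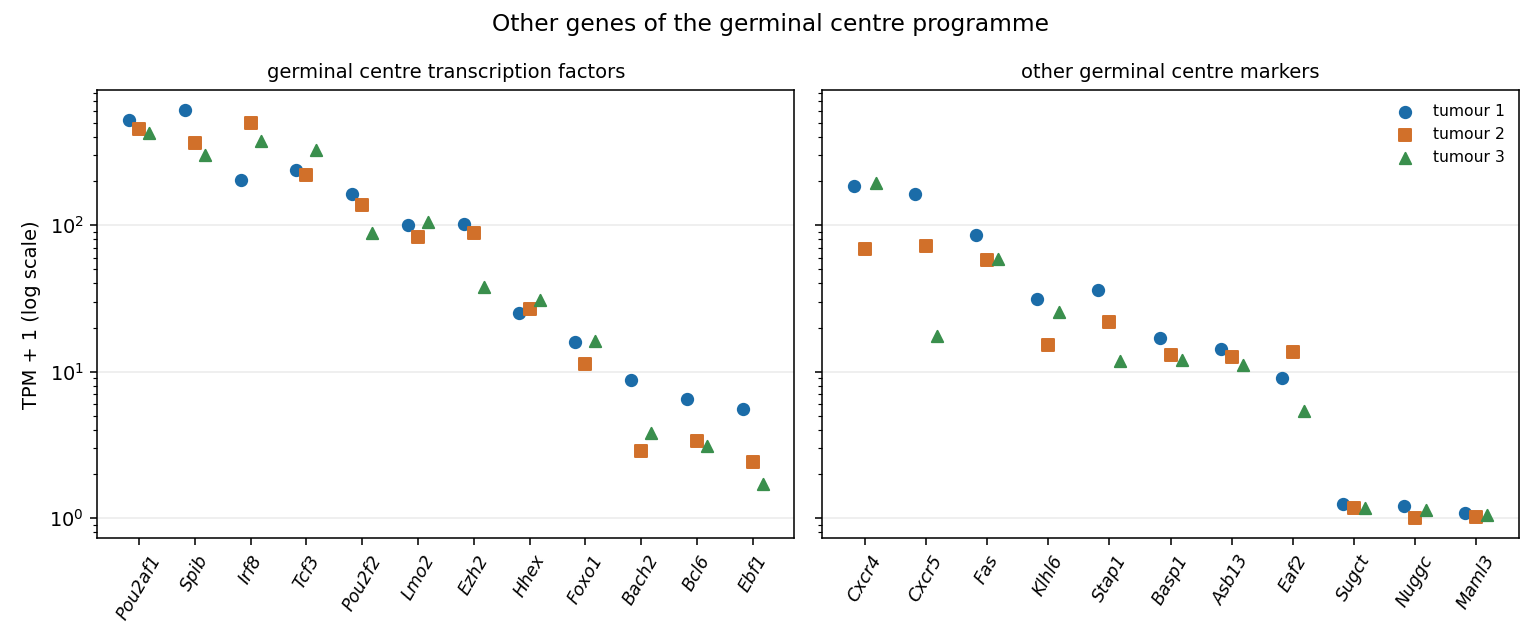
TPM plus 1 (log scale) in each tumour for 12 transcription factors of germinal centre B cells (left) and 11 other markers (right), ordered by mean TPM. Pou2af1, Spib and Irf8 lead on the left, with Bcl6 near the lower end at 2.11 to 5.55 TPM. On the right Cxcr5 spreads from 16.6 to 162 TPM.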

How the data were processed

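Each deposited file holds whole-number read counts per gene of 1 library, not normalized by the authors, per the file headers. The submitters' processing notes name FastQC, STAR 2.5.2b, featureCounts 1.6.0 and build mm10. Settings, strand use and the annotation were not given in the sources used here. The labels' protocols describe sorting by B220 without dead cells, TRIzol extraction, oligo-dT selection and single reads of 50 nt. Nothing states that the mice were unrelated, so spreads and p-values measure these samples, numbered in accession order. No pair of libraries agreed within sampling noise (chi-square per degree of freedom 67.6 to 74.0).

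Of 37646 identifiers, 37536 matched GENCODE M21 (GRCm38) for lengths and 1-based coordinates. CPM used TMM factors (1.023, 0.9595 and 1.018; edgeR 4.0.16, R 4.3.3) on counts of genes passing filterByExpr. TPM used joined exon length and the same factors. Variability came from an intercept-only edgeR quasi-likelihood fit, one-sided F against the abundance trend, Benjamini-Hochberg over 11478 genes, threshold 0.05. On simulated counts for these genes it recovered 38.4% of genes changed 4-fold in 1 tumour and 80.0% of those changed 8-fold. There were at most 7 false calls in each of 5 runs. The changed genes were drawn from those of higher mean count, and no change below 4-fold was simulated. All 5 tested members ranged less than 4-fold, so the recovery of ranges like theirs was not measured. Differences between genes within a tumour used an exact two-sided sign-flip test. The design held no contrast, so none was fitted. Named genes were all members, the paired relatives, up to 4 genes of highest mean TPM per list, and any listed gene past the threshold. Others, such as genes at 0, Bcl6 and S1pr3, were named after their values were seen. A few genes of the lists are not reported here. The members and lists were chosen with earlier results of these data known. Figures were drawn with matplotlib 3.10.9.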

Additional observations from a re-analysis of the deposited data

How the results depend on the processing

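The count of 5 members at 1 CPM or more in every tumour was 5 under each alternative tried: DESeq2 size factors, the library total alone, a minimum of 0.5 CPM, a mean of 1 CPM, and leaving out each tumour. Single tumours weighed on several mean levels. Mybl1 went from 6.16 to 3.54 CPM and Efnb1 from 0.794 to 0.479 CPM without tumour 1, and S1pr2 from 6.40 to 3.98 CPM without tumour 3. At the floor, Gcsam went to 0 without tumour 2 and Mme to 0 without tumour 3, and Serpina9 lay between 0.0324 and 0.0978 CPM. The length used could have turned a pair difference and turned no mean. With no division by length the mean was 2.94 for Ung minus Neil1, -2.04 for Itpkc minus Itpkb and 1.71 for S1pr4 minus S1pr2, each over 1.5 times from its value per length. A pseudocount of 0.1 gave 3.99 for Rgs1 minus Rgs13, 9.24 for Ece1 minus Mme and -1.19 for Efnb2 minus Efnb1, pairs with a gene near the floor. With 1 tumour left out, Mef2c minus Mef2b ranged from 0.29 without tumour 3 to 0.87 without tumour 2. It moved further with length, to 1.77 with the longest transcript and 3.96 with no division by length. The number of variable genes was not stable. Against 16 with TMM it was 15 with DESeq2 size factors, 0 with the library total alone (709 at an unadjusted p under 0.05), 0 with a mean count of at least 10 (781) and 164 with no filter beyond 1 count. It ranged from 0 to 11 when 1 tumour was left out, with 0 without tumour 1 or tumour 2 (654 and 606 at an unadjusted p under 0.05) and 11 without tumour 3. The cause was not tested. The 5 tested members stayed above the threshold in 35 of 35 alternatives, with adjusted p from 0.886 to 0.9996. Before adjustment, Itpkb alone fell under 0.05, without tumour 3 (edgeR unadjusted p = 0.0444, adjusted p = 0.986). No paired analysis was possible because all libraries form 1 group. Depth limits Rgs13, Gcsam, Mme and Serpina9, whose counts do not support an order between tumours.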
